A study of Homo sapiens with 6 samples.

Results

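The genes described here, which mark gastric epithelial lineages or regulate endoderm, are 10 of the 58735 genes in the deposited table, chosen by symbol: MUC5AC, MUC6, TFF1, TFF2, GKN1, PGC, CDX2, GATA6, SOX2 and SOX9. They were measured by RNA-seq in HGC-27 cells, an established line of undifferentiated human gastric carcinoma. The control cells (shNC, genotype given as WT) carried the vector pSIH-H1-Puro-shNC, and the knockdown cells (shACAT2, genotype given as ACAT2 knockdown) carried pSIH-H1-Puro-shACAT2, each sequenced as 3 libraries. All cells were exposed to their vector for 24 h and kept under puromycin for 7 days. The labels do not say which hairpin was used or whether the libraries of a group came from separate cultures, so p-values measure only the spread between these libraries.

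The adult gastric mucosa is renewed from progenitors that give rise to surface pit cells, mucous neck cells, chief cells, parietal cells and endocrine cells. Pit cells secrete the gel-forming mucin MUC5AC, the trefoil peptide TFF1 and the gastrokine GKN1, mucous neck and gland cells secrete MUC6 and TFF2, and PGC encodes a pepsinogen made chiefly by chief cells. GATA6 is a zinc finger factor of early endoderm, SOX2 is a foregut and gastric factor, SOX9 is a progenitor factor of many epithelia, and CDX2 specifies intestinal identity and is absent from the normal gastric lining.

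GATA6 and CDX2 were the expressed members: they averaged 1 FPKM or more (fragments per kilobase of gene length, scaled by the authors for library depth), whereas the other 8 lay far below this limit. SOX9 and MUC6 had a few fragments in every library, SOX2, MUC5AC and TFF2 in some libraries, and TFF1, GKN1 and PGC in none. Of the 10 members these 2 passed the filter of 1 FPKM in either group, beside 13832 of all 58735 genes in the table. Both were compared between shACAT2 and shNC cells. Neither was called at a limma adjusted p below 0.05, against 5.10% of the 13832 genes tested (3.30% higher and 1.81% lower in shACAT2), and 0 had an unadjusted p below 0.05, against 23.5% of all genes tested. The count was also 0 with limma-voom on the recovered fragments. It was 0 as well at the study's threshold of an unadjusted p below 0.05 with an absolute log2 fold change above 1, which 1.50% of all genes tested passed. That threshold was applied here to the limma fit on log2(FPKM + 1), not to the fold changes of the study's own analysis. In such bulk libraries fewer cells of a type and less RNA per cell cannot be told apart.

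The start regions of 5 members were among the RefSeq promoters of GRCh38.p14, from 250 bases before to 50 bases after the start in RefSeq. For CDX2, GATA6, GKN1 and PGC this start lies inside the gene span of the deposited table. The windows of GATA6 and GKN1 still take in the 5′ end of that span, whereas those of CDX2 and PGC do not. The windows of the 2 expressed genes and of 2 genes without a fragment are shown. They set the start of a gene that is on in these cells beside one that is off. Capitals mark TATAAA, the core of a TATA box, and AGATAA, a motif of GATA factors, each searched on both strands (TTTATA and TTATCT on the other).
CDX2, chr13:27969266-27969565, minus strand: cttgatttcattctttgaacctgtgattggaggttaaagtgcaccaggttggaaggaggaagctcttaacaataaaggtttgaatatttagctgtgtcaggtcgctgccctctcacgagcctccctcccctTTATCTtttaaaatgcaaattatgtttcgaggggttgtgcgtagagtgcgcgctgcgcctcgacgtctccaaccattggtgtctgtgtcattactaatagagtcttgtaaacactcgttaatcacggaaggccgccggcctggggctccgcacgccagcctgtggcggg
GATA6, chr18:22169339-22169638, plus strand: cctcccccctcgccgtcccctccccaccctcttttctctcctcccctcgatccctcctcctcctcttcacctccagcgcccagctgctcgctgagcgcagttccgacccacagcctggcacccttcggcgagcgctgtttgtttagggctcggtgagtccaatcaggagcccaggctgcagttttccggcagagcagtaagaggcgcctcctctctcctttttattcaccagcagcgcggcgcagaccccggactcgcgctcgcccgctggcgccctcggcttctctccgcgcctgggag
GKN1, chr2:68974386-68974685, plus strand: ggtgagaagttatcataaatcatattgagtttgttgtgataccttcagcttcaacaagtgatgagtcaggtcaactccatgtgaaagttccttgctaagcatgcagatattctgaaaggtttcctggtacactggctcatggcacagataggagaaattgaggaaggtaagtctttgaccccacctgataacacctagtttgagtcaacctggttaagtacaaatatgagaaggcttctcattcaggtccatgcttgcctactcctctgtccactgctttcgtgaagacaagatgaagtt
PGC, chr6:41747348-41747647, minus strand: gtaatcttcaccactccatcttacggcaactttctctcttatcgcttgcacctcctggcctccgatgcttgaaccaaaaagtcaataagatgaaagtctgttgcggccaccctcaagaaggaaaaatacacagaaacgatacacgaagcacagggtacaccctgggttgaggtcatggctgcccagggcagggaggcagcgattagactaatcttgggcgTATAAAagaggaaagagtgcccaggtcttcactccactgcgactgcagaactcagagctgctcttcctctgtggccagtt
The GATA6 window had 66.7% G+C and 25 CpG dinucleotides, and that of SOX2, a gene close to 0 here, had 63.3% and 20. The CDX2 window had 50.3% G+C and 16 CpG, PGC 50.7% and 9, and GKN1 42.3% and 1, so G+C content did not order the genes by their level. The medians over 34796 promoters were 58.7% and 14. TATAAA occurred in PGC among the 5 windows and in 11.6% of all promoters, and AGATAA in CDX2, on the opposite strand, and in 10.4% of all. A motif of CDX factors, TTTATGG, occurred in none of the 5 and in 2.54% of all.

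GATA6 (ENSG00000141448) lies on chromosome 18 of hg38 from 22169443 to 22202528 (plus strand). Its FPKM was 4.12, 3.89 and 3.63 across control replicates 1 to 3 and 4.06, 3.48 and 3.87 across knockdown replicates 1 to 3. The values of the groups overlapped, and each rested on 228 to 249 fragments. The mean was 3.88 ± 0.247 FPKM (SD, n = 3) for shNC and 3.80 ± 0.296 FPKM (SD, n = 3) for shACAT2. The log2 fold change, taken on log2(FPKM + 1), which understates changes of low genes, was −0.03 with a standard error of 0.09 (limma adjusted p = 0.897). Its 95% interval ran from −0.25 to 0.20. The two-sided exact permutation test gave p = 0.7, where the smallest p that 3 against 3 libraries allow is 0.1. By mean FPKM, GATA6 stood at percentile 40.1 of the genes tested. Its exons share 240 bases with GATA6-AS1 and 321 bases with AC091588.3 on the opposite strand. These antisense genes had 3 to 16 and 0 to 4 fragments per library, and since the strand setting of the counting is not stated, their reads and those of GATA6 in the shared bases cannot be told apart. None of the other 9 members shares exon bases with another gene in GENCODE release 29.

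CDX2 (ENSG00000165556) lies on chromosome 13 from 27962137 to 27971139 (minus strand). Its FPKM was 2.31, 1.53 and 1.79 in the 3 controls by replicate number, against 2.92, 2.12 and 1.55 in the 3 knockdown libraries, from 96 to 183 fragments. The highest value was in shACAT2-1 and the lowest in shNC-2, next to shACAT2-3, so the groups overlapped. The mean was 1.88 ± 0.402 FPKM (SD, n = 3) for shNC and 2.20 ± 0.690 FPKM (SD, n = 3) for shACAT2. This is a difference of 0.14 in log2(FPKM + 1) with a standard error of 0.19 (limma adjusted p = 0.701), with a 95% interval from −0.30 to 0.58, and the two-sided exact permutation test gave p = 0.6. CDX2 stood at percentile 22.9 of the genes tested. This interval is wider than that of GATA6, and these libraries do not tell apart changes of CDX2 within it. Without shACAT2-1 the log2 fold change turned to −0.02.

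**Figure D1:**
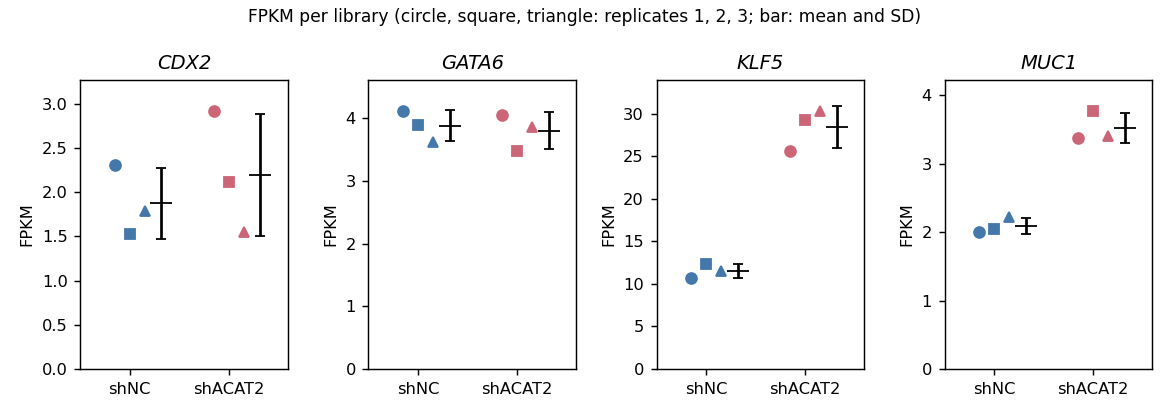
FPKM of CDX2, GATA6, KLF5 and MUC1 in each library (vertical axes in FPKM, starting at 0), with shNC in blue, shACAT2 in red, and the mean with its SD (n = 3) as a black bar. The groups overlap for CDX2 and GATA6, whereas all 3 shACAT2 values of KLF5 and MUC1 lie above all 3 shNC values.

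SOX9 (ENSG00000125398, chromosome 17 from 72121020 to 72126420) had an FPKM of 0.199, 0.172 and 0.118 across control replicates 1 to 3 and 0.218, 0.107 and 0.271 across knockdown replicates 1 to 3. These values come from 7 to 16 fragments per library. The groups overlapped, with means of 0.163 ± 0.0415 and 0.199 ± 0.0836 FPKM (± SD of 3 libraries per group). MUC6 (ENSG00000184956, chromosome 11 from 1012821 to 1036706) had 7, 6 and 6 fragments in the 3 controls by replicate number, against 12, 6 and 15 in the 3 knockdown libraries, or 0.0413 to 0.119 FPKM. MUC6 is a large mucin gene that contains repeats, and how reads that match several places were assigned is not stated, so its count is uncertain. With no filter on low values, the limma adjusted p was 0.825 for SOX9 and 0.669 for MUC6.

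To see how near these values lie to background, the 10 genes were set beside 386 protein-coding olfactory receptor genes, which are expressed mainly in the nasal epithelium. Over their summed length, the olfactory genes had 0.124 to 0.251 fragments per kilobase in 5 libraries and 0.762 in shACAT2-3. In that library 228 olfactory receptor genes had a fragment, against 33 to 50 in the others, so values near 0 in shACAT2-3 are given apart. Outside shACAT2-3 the rate thus rested on a small part of the 386 genes, and it is a rough guide rather than a floor. At the olfactory rate SOX9 would have 0.488 to 0.988 fragments in the other 5 libraries and 3.00 in shACAT2-3, less than its 7 to 16. For MUC6 it would be 1.04 to 2.12 and 6.42, again less than was counted. Without shACAT2-3, the mean of the shACAT2 libraries was 0.162 FPKM for SOX9 and 0.0683 FPKM for MUC6.

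SOX2 (ENSG00000181449, chromosome 3 from 181711924 to 181714436) had 2, 1 and 0 fragments across control replicates 1 to 3 and 0, 0 and 2 across knockdown replicates 1 to 3. MUC5AC (ENSG00000215182, chromosome 11 from 1157953 to 1201138) had 2 fragments in shNC-2, 2 in shACAT2-3 and 0 elsewhere. Over its 17448 bases the olfactory rate gives 2.16 to 13.3 fragments, so the MUC5AC count was below this rate in every library. TFF2 (ENSG00000160181, chromosome 21 from 42346357 to 42351128) had 2 fragments in shNC-1, 2 in shACAT2-3 and 0 elsewhere. These 3 genes had no fragment in shACAT2-1 and shACAT2-2. Their counts are too few for a comparison between the groups.

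TFF1 (ENSG00000160182, chromosome 21 from 42362282 to 42366594), GKN1 (ENSG00000169605, chromosome 2 from 68974573 to 68980974) and PGC (ENSG00000096088, chromosome 6 from 41736711 to 41754109) had 0 fragments in all 6 libraries. With 3 fragments as the limit that a count of 0 allows in a library, TFF1 could reach up to 0.363 FPKM, GKN1 up to 0.174 FPKM and PGC up to 0.0987 FPKM in the library with the widest limit. These limits cover counting error only. The limit of TFF1 is the widest, since at 551 bases it is the shortest of the 10 genes.

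**Figure D2:**
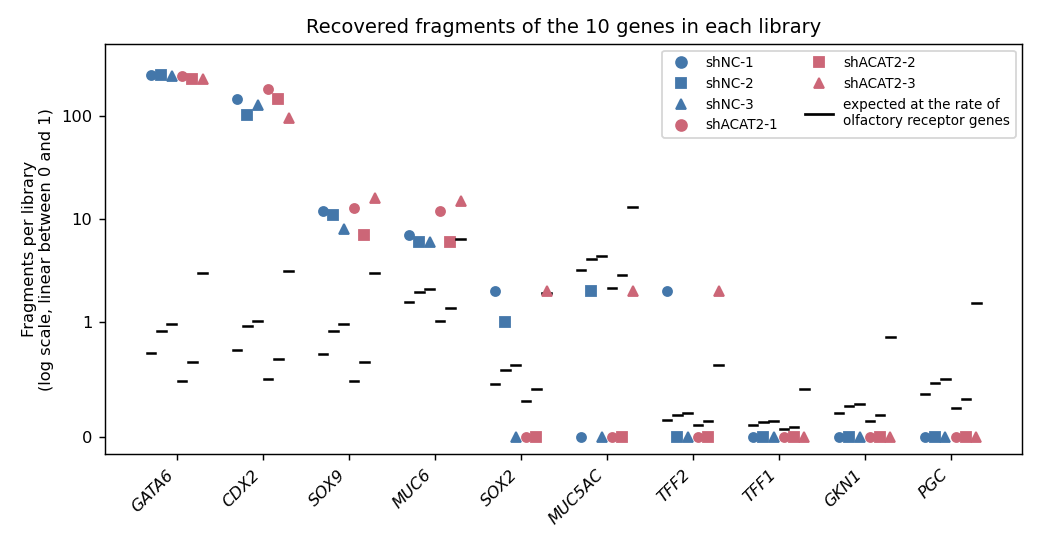
Recovered fragments per library for the 10 genes (vertical axis logarithmic, linear between 0 and 1), with shNC in blue, shACAT2 in red, and short black lines for the number expected at the rate of olfactory receptor genes in the same library. GATA6 and CDX2 lie between 96 and 249 fragments, SOX9 and MUC6 between 6 and 16, and the other 6 genes at 0 to 2.

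Ordered by mean FPKM over the 6 libraries, GATA6 (3.84) led CDX2 (2.04), SOX9 (0.181), MUC6 (0.0658), TFF2 (0.0530), SOX2 (0.0216) and MUC5AC (0.00245). The lowest GATA6 value, 3.48 FPKM, was above the highest CDX2 value, 2.92 FPKM, and the lowest CDX2 value, 1.53 FPKM, was above the highest SOX9 value, 0.271 FPKM. From SOX9 downward, the ranges of neighbours overlapped. Over all genes tested, the 3 whose log2(FPKM + 1), centred on the 6-library mean, stayed nearest to that of CDX2 were EEFSEC, YBX1P1 and TMEM8A, with mean absolute differences of 0.02, 0.03 and 0.03. For GATA6 they were ALDH7A1, HOMER2 and IMMT, each at 0.02. The median over all genes was 0.23 for CDX2 and 0.17 for GATA6.

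The low level of the secreted products extended to most other markers of gastric cell types. Over the pit, neck, chief, parietal and endocrine cell lists, 41 genes were in the table, of which 1, MUC1, reached 1 FPKM in either group. A mean under 0.1 FPKM over the 6 libraries was found for 30, and 13 had fragments in every library. Among 7 chief cell genes and 6 neck and gland mucous genes, 0 reached 1 FPKM, as among 8 parietal and 9 endocrine cell genes. The highest of these, parietal SLC26A7, averaged 0.963 FPKM in shNC and 0.553 FPKM in shACAT2 (31 to 113 fragments). Its shACAT2 values all lay below its shNC values, as for KCNQ1, whereas those of endocrine SYP (23 to 53 fragments) all lay above. With no filter the limma adjusted p was 0.528, 0.570 and 0.664. The share of genes tested without overlap, 30.7%, does not cover these. With library-size scaling, 1 parietal gene passed the filter. The tight junction gene CLDN18, common in stomach epithelium, had 10 to 28 fragments per library, or 0.170 to 0.419 FPKM, and the pit cell antigen PSCA had 3 to 11 fragments. Of 6 trefoil and gastrokine genes, TFF1, GKN1 and GKN3P had no fragment, and TFF3 had 1 in shACAT2-2 and 5 in shACAT2-3.

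MUC1, a transmembrane mucin of many epithelia, was the single mucin of 17 that was tested, and it rose. Its FPKM was 1.99, 2.05 and 2.23 in the 3 controls by replicate number, against 3.38, 3.78 and 3.40 in the 3 knockdown libraries. All shACAT2 values lay above all shNC values, as the values of 1 group did for 30.7% of all genes tested in either direction. This is a difference of 0.55 in log2(FPKM + 1) with a standard error of 0.09 (limma adjusted p = 0.025). The limma adjusted p rose above 0.05 with no filter (0.0874), when controls 2 and 3 were averaged (0.118), and when shACAT2-2 (0.103) or any 1 control was left out (0.0937, 0.132 and 0.113 by replicate number).

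CDX2 was the single gene of 14 on the intestinal list to be tested. CDX1, its closest relative, and the intestinal mucin MUC2 had no fragment in any library. VIL1, which encodes the brush border protein villin, had 0 to 4 fragments in 5 libraries and 11 in shACAT2-3, and CDH17, the intestinal cadherin, had 4 in shNC-3, 6 in shACAT2-3 and 0 elsewhere.

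**Figure D3:**
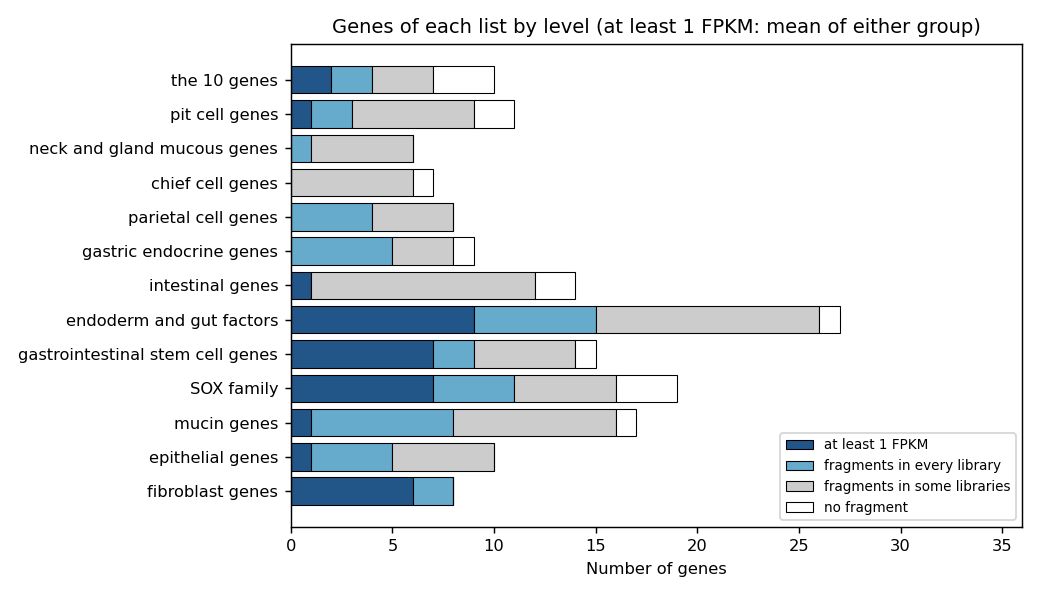
Number of genes of each list (horizontal axis) by level: averaging 1 FPKM or more in a group, less but fragments in every library, fragments in some libraries, or no fragment. Of the 27 endoderm and gut factors 9 reached 1 FPKM, against 0 of the chief, parietal, endocrine and neck cell genes.

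In contrast to the secreted products, 9 of 27 endoderm and gut transcription factors reached 1 FPKM, beside 13832 of all 58735 genes in the table. Besides GATA6 and CDX2 these were KLF5, GATA4, MNX1, KLF4, HNF4G, ONECUT2 and FOXA1. KLF5, a zinc finger factor of proliferating gut epithelium, rose and was the single one called, with 0 lower, against 5.10% of all genes tested. The median log2 fold change of the 9 was −0.08, beside 0.02 over all genes tested. KLF5 had 10.7, 12.3 and 11.5 FPKM across control replicates 1 to 3 and 25.7, 29.2 and 30.4 FPKM across knockdown replicates 1 to 3, from 635 to 1891 fragments. The groups lay far apart, with means of 11.5 ± 0.834 and 28.4 ± 2.44 FPKM (± SD of 3 libraries per group). This is a difference of 1.24 in log2(FPKM + 1) with a standard error of 0.11 (limma adjusted p = 0.0040), and the adjusted p stayed at or below 0.0408 in all 15 alternative fits.

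GATA4, which acts with GATA6 in gut endoderm, had 7.28, 5.23 and 5.87 FPKM in the 3 controls by replicate number, against 5.89, 4.52 and 5.01 FPKM in the 3 knockdown libraries. The groups overlapped, although GATA4 was lower in the knockdown in all 3 same-numbered pairs. The log2 fold change was −0.21 (95% interval from −0.54 to 0.12, limma adjusted p = 0.404, and 0.0873 under the replicate block). GATA5, also a gut endoderm member of the family, had 1 fragment in shNC-1, 1 in shNC-2 and 0 elsewhere. Among the 8 GATA and FOG cofactor genes 6 were tested and 0 called by limma, with 2 at an unadjusted p below 0.05, GATA2 (log2 fold change 0.54) and ZFPM2 (−0.39), and 0 called by limma-voom. The share of all genes at that unadjusted threshold was 23.5%. With the replicate number as a block, ZFPM2 passed (limma adjusted p = 0.0370), and without shACAT2-3 GATA2 did (0.0371). The hepatocyte nuclear factor HNF4A, a regulator of gut and liver genes, had 0 to 6 fragments in 5 libraries and 10 in shACAT2-3. FOXA2, a pioneer factor of endoderm, was below the filter and had 31, 32 and 28 fragments across control replicates 1 to 3 and 24, 12 and 13 across knockdown replicates 1 to 3, and its limma adjusted p with no filter was 0.586. PDX1, a factor of antrum and duodenum, had 27, 15 and 14 fragments in the 3 controls by replicate number, against 12, 2 and 12 in the 3 knockdown libraries. Its limma adjusted p with no filter was 0.669. For both FOXA2 (means 0.720 and 0.406 FPKM) and PDX1 (0.467 and 0.228 FPKM), all knockdown values lay below all control values. Of all genes tested, 30.7% had groups without overlap, a share that does not cover these 2.

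**Figure D4:**
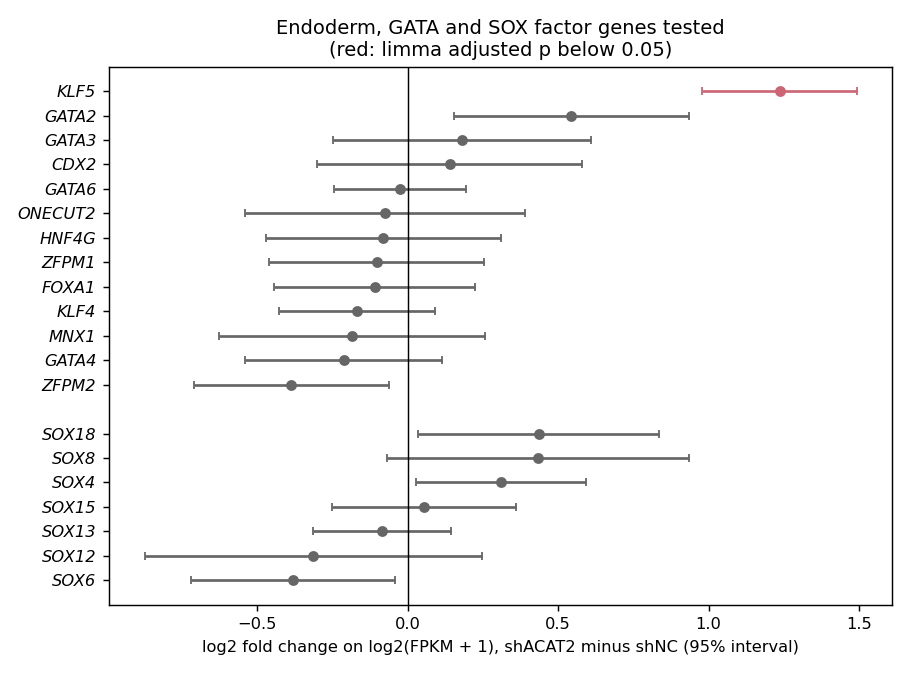
Log2 fold change on log2(FPKM + 1), shACAT2 minus shNC, with its 95% interval for the 13 endoderm and GATA family genes tested (upper block) and the 7 SOX genes tested (lower block), red where the limma adjusted p was below 0.05. KLF5, at 1.24, is the single red point, and the interval of GATA6 is among the narrowest, from −0.25 to 0.20.

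SOX2 and SOX9 belong to the SOX family of HMG box factors, of which 7 of 19 genes were tested and both of these were not. By mean FPKM over the 6 libraries SOX9 stood below 8 of the other 18 SOX genes and above 10. Of the 7 tested, the highest were SOX12, at 41.8 ± 4.61 FPKM in the controls and 34.5 ± 11.1 FPKM in the knockdown, and SOX4, at 13.7 ± 0.821 and 17.4 ± 2.18 FPKM (mean ± SD of 3 libraries). SOX8 averaged 12.6 FPKM in the controls and 17.8 FPKM in the knockdown. SOX8 and SOX10 are the closest relatives of SOX9, and SOX10 had 4 to 11 fragments per library. SOX1 and SOX3, those of SOX2, had 0 fragments and 1 fragment in all, the latter in shACAT2-3. None of the 7 was called by limma or limma-voom, while SOX4, SOX6 and SOX18 had an unadjusted limma p below 0.05, with log2 fold changes of 0.31, −0.38 and 0.44, beside the 23.5% of all genes at that threshold. The long non-coding RNAs around SOX2 and SOX9, SOX2-OT and SOX9-AS1, each had 2 fragments in shNC-3, 12 and 11 in shACAT2-3, and 0 in the other libraries. AC090192.1, annotated as a SOX2 pseudogene and chosen after its values were seen, had 38 fragments in shACAT2-3 and 10 to 25 in the other libraries. Of its 466 stretches of 25 bases 55 occur in SOX2 transcripts, the longest shared run being 59 bases, so a SOX2 read within this run cannot be placed between them.

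SOX9 and SOX2 also stand for progenitors, and among 15 gastrointestinal stem cell genes 7 were tested, of which 1 was called higher and 2 lower. Over all genes tested, 3.30% were called higher and 1.81% lower. CD44, a hyaluronan receptor, rose from 3.42 ± 0.208 to 7.08 ± 0.138 FPKM (± SD of 3 libraries per group), a log2 fold change of 0.87 (limma adjusted p = 0.0048). LRIG1, an inhibitor of ERBB signalling, fell from 6.71 ± 0.709 to 3.63 ± 0.0804 FPKM (± SD of 3 libraries per group), a log2 fold change of −0.73 (limma adjusted p = 0.012). ALDH1A1, a retinal dehydrogenase, fell from 9.34 ± 0.465 to 4.95 ± 0.647 FPKM (± SD of 3 libraries per group), a log2 fold change of −0.80 (limma adjusted p = 0.013). Their groups did not overlap, as for 30.7% of all genes tested in either direction. Both lower calls were lost without shNC-2, shNC-3 or shACAT2-2 and when controls 2 and 3 were averaged, with limma adjusted p from 0.0644 to 0.0855, and that of ALDH1A1 also without shNC-1 (0.0544). BMI1 had a log2 fold change of 0.64 (limma adjusted p = 0.068), which passed with the replicate number as a block (0.0181), with limma-voom (0.0388), with a filter of 10 fragments per library (0.0446) and without shACAT2-1 (0.0344). LGR5, the receptor that marks antral and intestinal stem cells, had 0 to 2 fragments per library. The median log2 fold change of the 7 was −0.28.

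The libraries had 14086416 to 16067486 fragments on genes. ACAT2 itself fell from 12.9 ± 1.25 to 5.90 ± 0.388 FPKM (SD, n = 3 each; limma adjusted p = 0.0059, and 0.0512 without shNC-3). Its exons share 397 bases with TCP1 on the opposite strand, which had 5249 to 7041 fragments per library against 390 to 944 for ACAT2, so with the strand setting not stated reads in these bases cannot be told apart. The labels give stomach as the tissue and gastric cancer cells as the cell type. Of 10 general epithelial genes 1 was tested, CLDN7 (log2 fold change −0.24, limma adjusted p = 0.502), and their FPKM summed to 2.28 to 2.47 in shNC and 2.92 to 3.41 in shACAT2 libraries. KRT18, a simple epithelial keratin, had 2 fragments in shACAT2-3 and 0 elsewhere, and EPCAM had 0 to 4 in the other 5 libraries and 8 in shACAT2-3. KRT19, KRT7 and GRHL2 had 3 to 6 in shACAT2-3 and 0 to 2 elsewhere. Other genes of this list had fragments in every library, KRT8 43 to 82, CLDN4 25 to 51 and ESRP1 4 to 22. CDH1, the epithelial cadherin, was below the filter, with 21, 12 and 15 fragments in the controls and 57, 85 and 107 in the knockdown, so its groups did not overlap. Its log2 fold change with no filter was 0.67 (limma adjusted p = 0.167), and it was called higher when the filter was instead 10 fragments per library. Of 8 fibroblast genes 6 were tested and 3 rose, the matrix genes COL1A1, DCN and LUM, against 3.30% called higher of all genes tested. PDGFRA, a growth factor receptor, had a log2 fold change of −0.43 (limma adjusted p = 0.070), with all knockdown values below all control values, and was called lower by limma-voom and under the replicate block. FAP, a surface protease below the filter, averaged 0.847 FPKM in the controls and 0.387 FPKM in the knockdown, also without overlap. Of all genes tested, 30.7% had groups without overlap, a share that does not cover CDH1 and FAP, which were not tested. The list summed to 307 to 341 FPKM in shNC and 444 to 537 FPKM in shACAT2 libraries. Leaving out any 1 control or shACAT2-2, limma called 0 of the 6, with 6 at an unadjusted p below 0.05 each time, PDGFRA lower and the others higher, and limma-voom on all libraries called 4 higher and 1 lower. Of 5 endothelial genes 0 reached the filter. PTPRC, which all leukocytes carry, had 1 to 7 fragments in 5 libraries and 10 in shACAT2-3, and the endothelial gene PECAM1 had 11 in shACAT2-3 and 0 elsewhere. What part these markers have in the levels of the 10 genes was not tested.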

How the data were processed

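RNA-seq libraries of HGC-27 cells, 3 shNC and 3 shACAT2, were assigned to groups by their titles, and table columns by the sample descriptions. The authors deposited FPKM values per gene. The submitters' processing notes name HISAT2 2.0.5, featureCounts 1.5.0-p3, DESeq2 1.20.0 and hg38, without roles, and the strand setting is not stated. Each value times the gene length is a whole multiple of 1 step per library (100% within 0.01), so fragments were recovered. The authors' denominator was 0.957 to 1.07 times the fragments on genes. No sample column was left unused. Start, end and length of all 10 genes and ACAT2 equal GENCODE release 29.

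Genes averaging 1 FPKM or more in one of the groups were tested on log2(FPKM + 1) by limma 3.58.1 with a mean-variance trend, under R 4.3.3, with Benjamini-Hochberg adjustment over 13832 genes. A call is an adjusted p below 0.05. Exact tests used scipy 1.17.1, other steps Python 3.11.15 with pandas 2.3.3. Same-numbered libraries deviated together from their group means (correlations 0.445, 0.126 and 0.171, each above 0.1). The fit with the replicate number as a block was therefore run beside the unpaired fit, from which values are given unless stated. Of differently numbered libraries, shNC-2 and shACAT2-3 had 0.198 and shNC-3 and shACAT2-2 had 0.141. These exceed the same-numbered value of replicate 2, so only replicate 1 stood apart. shNC-2 and shNC-3 were closer (chi-square per gene 1.77) than other pairs of a group (14.6 to 56.5) but above sampling noise, and were kept as 2.

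Alternatives tried were scaling by upper quartile or library size, a pseudocount of 0.1, 3 other filters, the replicate block, limma-voom on the fragments, averaging controls 2 and 3, the study's threshold, and each library left out. Genes named were the 10 genes, ACAT2, the called genes of each list or else its highest genes, genes sharing exons, and the 3 nearest in pattern; other names were chosen after their values were seen. The genes and lists were chosen with earlier results of these data known. Intervals are at 95%. Some genes of the lists are not reported here.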

Additional observations from a re-analysis of the deposited data

How the results depend on the processing

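Under the 16 alternatives, 0 of the 10 genes were called by limma or limma-voom. Only GATA6 and CDX2 were tested in each, except that 7 members were tested with no filter. For members not tested, the filter or a lack of fragments fixed this outcome. GATA6 and CDX2 were the 2 at or above 1 FPKM wherever libraries or scaling changed. With 1 library left out, the log2 fold change of CDX2 ran from −0.019 to 0.29 and that of GATA6 from −0.063 to 0.024, so neither had a settled direction. The same fits turned the sign of HNF4G (−0.19 to 0.053), ONECUT2 (−0.19 to 0.13), AXIN2 (−0.15 to 0.0084) and SOX15 (−0.023 to 0.12). KLF5 and CD44 passed in all 15 fits. Over all genes the 706 calls became 209 without the filter, 83 when controls 2 and 3 were averaged, 207 under the study's threshold, 1727 under the replicate block (CDX2 adjusted p 0.459 and GATA6 0.830 in that limma fit), and 63 to 862 with 1 library left out (135, 101 and 63 leaving out each control in turn, 129 leaving out shACAT2-2); the cause was not tested. The block changed the call of BMI1, ZFPM2, COL3A1, COL1A2 and PDGFRA among the genes of the lists and of no member. At this depth a count of 0 allows TFF1 a level of up to 0.363 FPKM.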
